A study of Mus musculus with 42 samples.

Results

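Immediate early genes are transcribed within minutes of a signal to the cell, without new protein synthesis. The 9 genes described here were Fos, Fosb, Jun, Junb, Atf3, Egr1, Ier2, Dusp1 and Btg2, taken by gene name from a read count table of 54532 genes in mouse liver. With a minimum mean count of 25 over all 42 libraries, 13394 genes were tested. This held for 8 of the 9 members, and Fosb, with a mean count of 19.6, was described without a test. Fos passed only through 10 adipocyte-rich libraries described below, in which its mean count was 400.6, beside 24.8 in 32 liver libraries.

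Signals reach these genes through the ERK cascade, which acts on serum response factor and its partners, and through cyclic AMP and calcium, which act on CREB. Fos, Fosb, Jun, Junb and Atf3 encode basic leucine zipper proteins that pair with each other or with related proteins to form the transcription factor AP-1. Egr1 encodes a zinc finger transcription factor, Ier2 a small nuclear protein, Dusp1 a phosphatase that switches MAP kinases off, and Btg2 an antiproliferative cofactor of mRNA deadenylation. In liver, genes of this kind are known to respond to growth factors, glucagon, injury and stress.

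The mice were female C57BL/6 mice (the substrain C57BL/6NHsd per the study's methods) fed the standard AIN93G diet or the HFD, a modified AIN93G formulation with more soybean oil, for 3 weeks from weaning. They were not fasted, were housed in groups, and were injected with ketamine and xylazine before exsanguination. Light came on at Zeitgeber time (ZT) 0 and went off at ZT 12. Poly(A) RNA was sequenced from 3 mice per diet every 4 h from ZT 0 to ZT 24.

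The labels were checked against marker genes before any comparison. Alb, the serum albumin gene of hepatocytes, was above 10000 counts-per-million (CPM) in 32 libraries, which are called liver here. In the other 10 libraries Alb reached at most 81 CPM, while Adipoq, the adiponectin gene of adipocytes, was at 1455 CPM or more. These adipocyte-rich libraries were all 3 AIN93G libraries at ZT 16, all 3 at ZT 20, and 2 of 3 libraries of each diet at ZT 24. Among the liver libraries Adipoq was highest in AIN93G ZT 4 replicate 3, at 5.01 CPM, and at most 0.84 CPM in the others. Dbp, a clock output gene, was at 59 to 91.4 CPM in 3 libraries labelled ZT 12 (AIN93G replicate 1, HFD replicates 1 and 2). It was at 0.129 to 0.369 CPM in the other 3 (AIN93G replicates 2 and 3, HFD replicate 3), beside 0.264 to 0.834 CPM in the libraries of ZT 0. In the liver libraries of ZT 24, Dbp was at 148 CPM on AIN93G and 66.1 CPM on the HFD. At ZT 12, 1 library per diet (AIN93G replicate 2, HFD replicate 3) was labelled as light phase and the other 4 as dark phase. The members' results over ZT 0 to ZT 12, over time on the HFD and for the rhythm are therefore also given without ZT 12. The spreads and the gene lists include it, and ZT 24, with 1 liver library per diet, entered no test. Library totals ranged from 14592481 to 21368409 counts, and all 42 pairs of replicates differed by more than sampling noise (chi-square per degree of freedom of 16.8 or more). The sample titles hold 32 numbers, of which 8 are shared by 2 or 3 samples of 1 diet at different times and 0 by samples of 1 group. The sources used here do not say what these numbers mean, and no label says more of the replicates than that they are separate samples, so p-values measure the spread between these samples.

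The promoters of 4 members hold the core TGACGT of the cyclic AMP response element (CRE), the DNA word that CREB and ATF proteins bind, and they are shown for that reason. RefSeq promoter sequences on GRCm38.p6 were matched for 7 of the 9 members, and those of Egr1 and Ier2 were not searched. The 250 bases before the start site were searched on both strands. The core was present in Fos, Atf3, Dusp1 and Btg2, and in 6.47% of 32841 promoters of the same length. The full palindrome TGACGTCA, which contains the core on both strands, was present in Dusp1 and Btg2 and in 1.55% of promoters. The AP-1 words TGACTCA and TGAGTCA (4.46% of promoters) and the CArG box bound by serum response factor (1.47% of promoters) were found in 0 of 7 members within these windows. The sequences below run 5′ to 3′ toward the start site, with the core and the palindrome in capitals. They lie at chr12:85473640-85473889 (plus strand, Fos), chr1:191183334-191183583 (minus strand, Atf3), chr17:26508473-26508722 (minus strand, Dusp1) and chr1:134079156-134079405 (minus strand, Btg2). The Atf3 window precedes a RefSeq start inside the gene, whose deposited positions reach from 191170296 to 191218039, and not its outermost 5′ end.
Fos: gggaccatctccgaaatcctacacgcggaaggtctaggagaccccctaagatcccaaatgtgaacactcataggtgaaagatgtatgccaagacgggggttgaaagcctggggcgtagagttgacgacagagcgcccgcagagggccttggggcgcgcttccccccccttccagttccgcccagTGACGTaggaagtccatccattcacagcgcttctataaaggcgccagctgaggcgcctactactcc
Atf3: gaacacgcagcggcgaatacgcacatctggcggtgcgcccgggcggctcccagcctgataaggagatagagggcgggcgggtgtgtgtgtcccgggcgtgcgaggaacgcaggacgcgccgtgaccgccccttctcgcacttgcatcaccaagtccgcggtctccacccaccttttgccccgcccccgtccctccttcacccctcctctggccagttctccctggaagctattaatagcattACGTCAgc
Dusp1: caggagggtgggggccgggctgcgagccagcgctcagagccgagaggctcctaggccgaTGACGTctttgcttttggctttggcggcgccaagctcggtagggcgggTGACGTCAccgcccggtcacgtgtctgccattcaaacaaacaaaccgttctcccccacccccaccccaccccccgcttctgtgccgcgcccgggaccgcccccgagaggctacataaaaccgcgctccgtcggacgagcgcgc
Btg2: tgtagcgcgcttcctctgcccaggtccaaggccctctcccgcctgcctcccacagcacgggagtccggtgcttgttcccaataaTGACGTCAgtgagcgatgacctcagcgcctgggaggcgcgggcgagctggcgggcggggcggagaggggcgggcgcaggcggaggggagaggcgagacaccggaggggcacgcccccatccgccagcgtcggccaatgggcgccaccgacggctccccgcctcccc
Counted back from the start site, the core began at base -66 in Fos and at base -8 in Atf3. The palindrome began at base -143 in Dusp1, with another core at -191, and at base -166 in Btg2. A match of letters is a description of the promoter and not a bound site.

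Levels of the members in liver differed widely. Levels per length, as CPM per kilobase over the 32 liver libraries, had medians of 18.9 for Dusp1, 13.5 for Ier2, 6.30 for Jun, 6.23 for Junb, 4.19 for Btg2, 1.76 for Egr1, 0.848 for Atf3, 0.521 for Fos and 0.0336 for Fosb. Every pair of neighbours in this order had overlapping ranges, such as Dusp1 and Ier2 (8.03 to 58.7 and 9.1 to 26.4 CPM per kilobase) or Jun and Junb (3.12 to 26.2 and 2.86 to 17.2). By median, the order ran from the phosphatase gene Dusp1 at the top to the Fos genes at the bottom. In counts, Fos had a maximum of 73 in the liver libraries. Fosb (chromosome 7, 19302696 to 19310051) had a mean of 5.12 counts in liver and at most 3 counts in 16 of the 32 libraries, a floor that corresponds to 0.151 to 0.206 CPM in these libraries and covers counting error only. In bulk tissue, fewer cells of a type and less RNA per cell cannot be told apart.

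**Figure D1:**
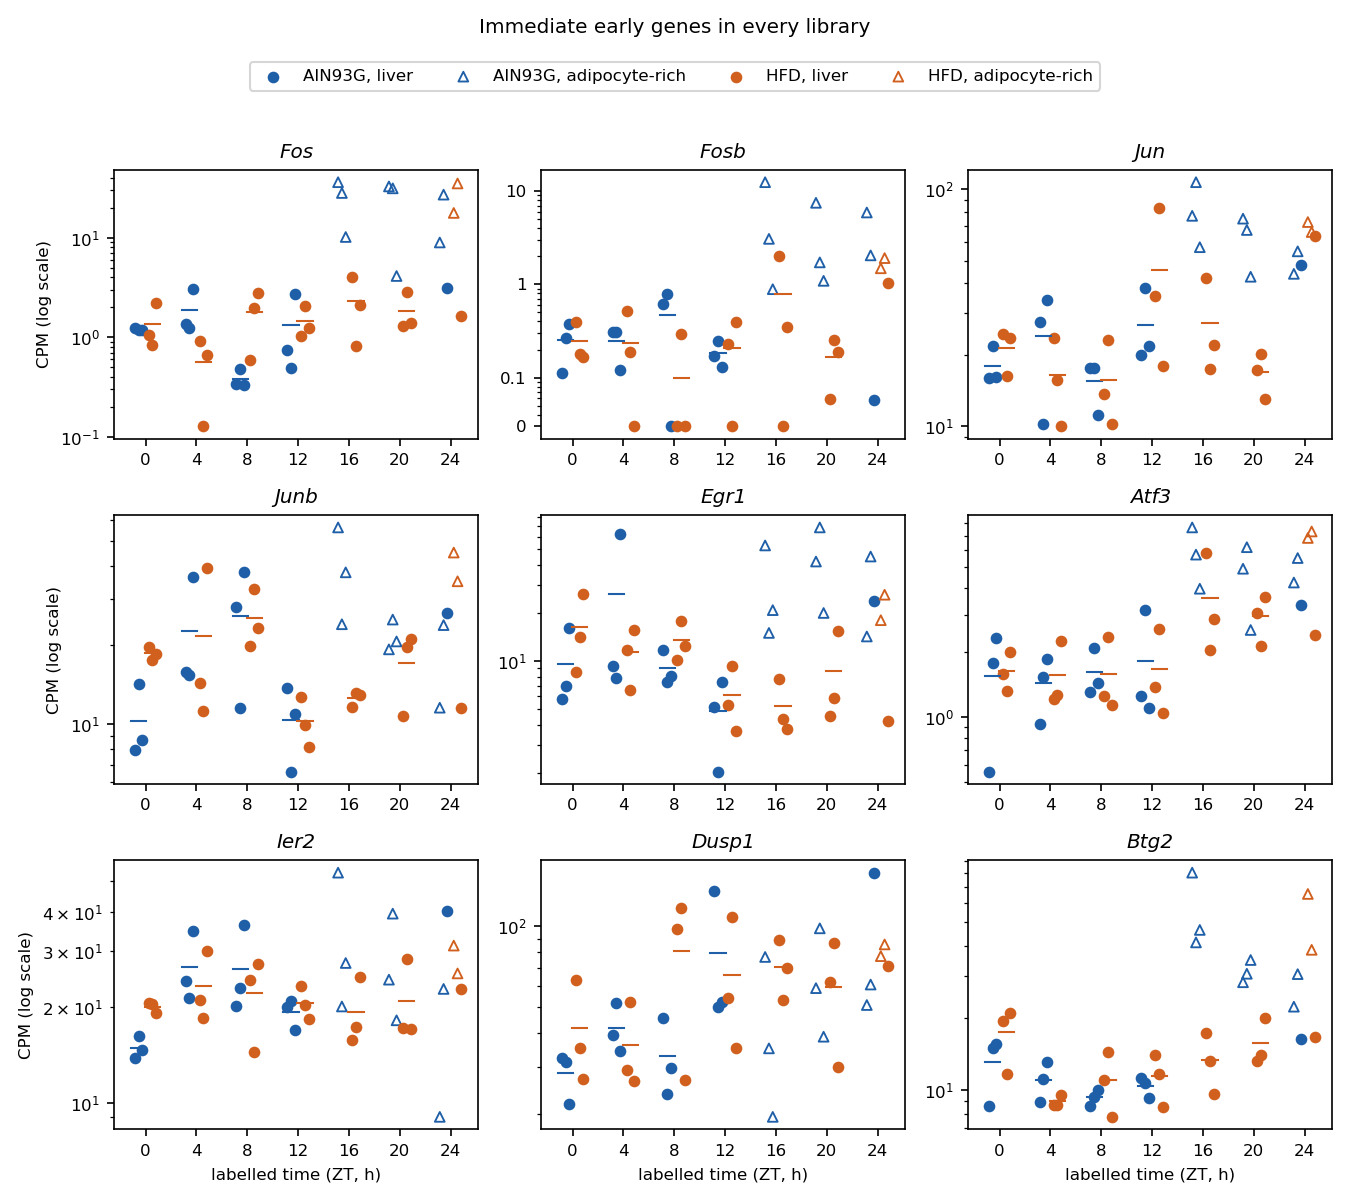
Level of each gene in all 42 libraries (CPM, log scale, 0 drawn at the bottom of the Fosb panel) against labelled time. Filled circles are liver libraries, open triangles adipocyte-rich libraries, and bars the means of 3 liver libraries. The circles of both diets overlap at most time points, and the triangles of Fos and Btg2 lie above all circles.

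Replicates of these genes differed more than replicates of most genes did. The spread between replicates is given here as the biological coefficient of variation (BCV), which edgeR estimated over the 30 liver libraries of ZT 0 to ZT 20 after counting error was set apart. It was 0.528 for Egr1, 0.498 for Fos, 0.413 for Dusp1, 0.378 for Jun, 0.375 for Atf3, 0.364 for Junb, and 0.221 for both Ier2 and Btg2. The median over the 8 members was 0.376, beside 0.189 over all 13394 genes tested. Egr1 thus had a larger spread than 93.6% of genes, Fos than 92.4%, Dusp1 than 88.9%, Jun than 86.6%, Atf3 than 86.3%, Junb than 85.4%, Ier2 than 61.4% and Btg2 than 61.3%. Genes of low level have larger spreads in general, so each BCV was also divided by the value of the trend at its level. The ratio was 2.39 for Egr1, 2.22 for Dusp1, 2.02 for Jun, 1.87 for Junb, 1.30 for Fos, 1.17 for Ier2, 1.05 for Atf3 and 1.03 for Btg2, and its median over all genes was 0.823. All 8 members were above that median. The spread of Egr1, Dusp1, Jun and Junb was the widest for their level, whereas Atf3 and Btg2 lay close to the trend. These values are descriptions with no test.

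**Figure D2:**
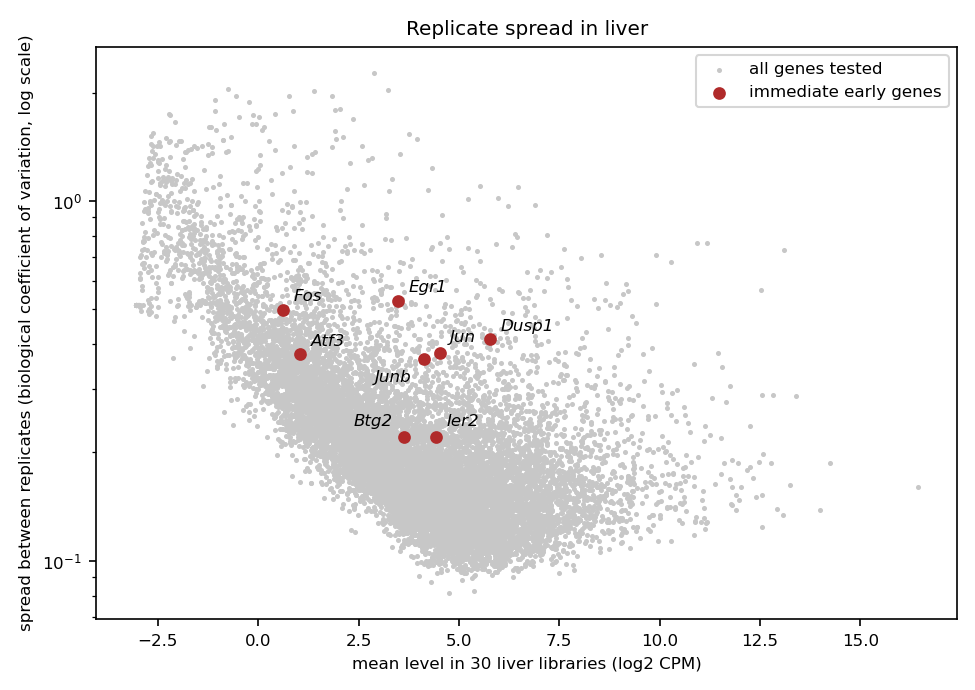
Spread between replicates (BCV, log scale) against mean level in 30 liver libraries (log2 CPM). Grey points are the 13394 genes tested and red points the 8 members, which lie between 0.221 and 0.528.

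The HFD was compared with AIN93G in liver at ZT 0, 4, 8 and 12. At none of these time points did a member pass the test (edgeR quasi-likelihood, adjusted p under 0.05). Among all 13394 genes, 0 were called at ZT 0, ZT 4 and ZT 12 (0%) and 2 at ZT 8 (0.0149%), of which 1 was higher and 1 lower on the HFD (0.00747% each). An unadjusted p under 0.05 was reached by 528 genes at ZT 0 (3.94%), by 362 at ZT 4 (2.7%), by 1556 at ZT 8 (11.6%) and by 929 at ZT 12 (6.94%). Members at that level were Fos at ZT 4, and Fos and Dusp1 at ZT 8. DESeq2 called 13 genes at ZT 0, 26 at ZT 8 and 3 at ZT 12, with no member among them. Over the 4 time points together, 11 genes were called (0.0821%; 4 higher on the HFD, 0.0299%, and 7 lower, 0.0523%) and 0 of 8 members. An unadjusted p under 0.05 was reached there by 1068 genes (7.97%) and by 0 members. The largest diet difference of a member in that test was that of Dusp1, at 0.32 on the log2 scale (SE 0.25, 95% interval -0.19 to 0.83, adjusted p 0.792). It was 0.52 without ZT 12 (adjusted p 0.398), 0.18 without HFD ZT 12 replicate 2 and 0.51 without AIN93G ZT 12 replicate 1. Without ZT 12, 69 genes and 0 members were called. These intervals do not show that the diets were alike.

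**Figure D3:**
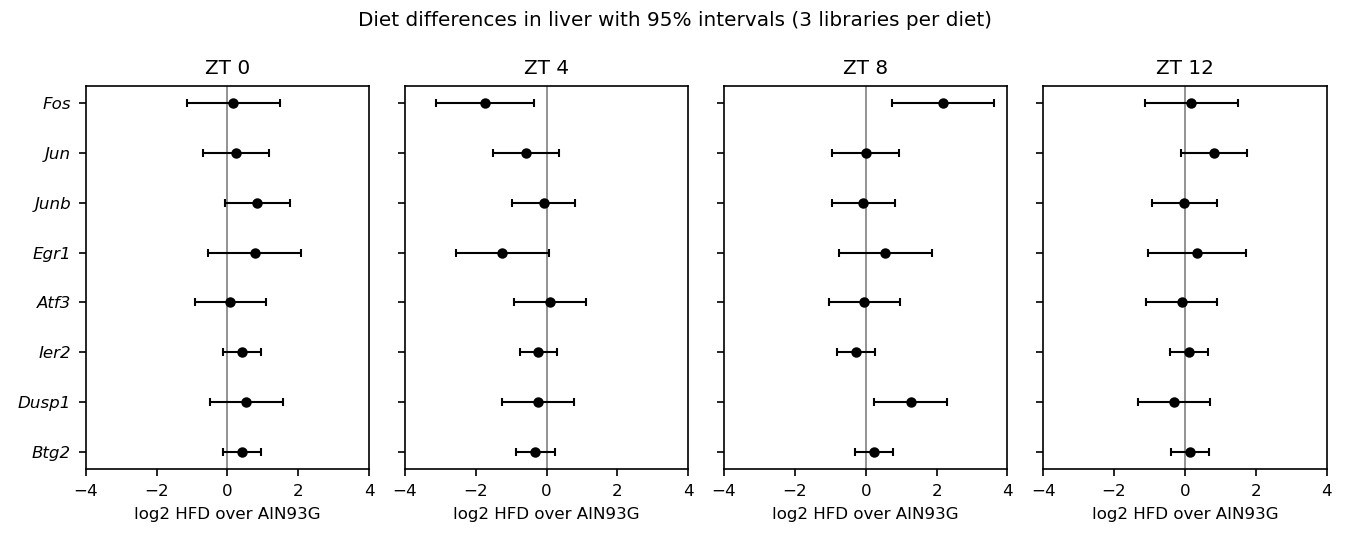
Log2 difference of the HFD over AIN93G for 8 members at 4 time points in liver, with 95% intervals from edgeR over 3 libraries per diet. The intervals of Fos at ZT 4 and at ZT 8 and of Dusp1 at ZT 8 leave out 0, and all others include it.

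Fos (chromosome 12, 85473890 to 85477273) had diet differences of opposite sign at ZT 4 and ZT 8. At ZT 4 it was at 1.36, 1.23 and 3.08 CPM on AIN93G, and at 0.922, 0.126 and 0.654 CPM on the HFD. All 3 HFD libraries were below all 3 AIN93G libraries. The log2 difference was -1.74 (SE 0.67, 95% interval -3.13 to -0.36, unadjusted p 0.0155, adjusted p 1), and -1.20 without AIN93G replicate 3. Adipocyte markers at ZT 4 had a median log2 difference of -2.13 over 10 markers, of which 5 had an unadjusted p under 0.05 and 0 were called. Their summed level was 62.1 to 136 CPM on AIN93G, the highest in replicate 3, and 74.7 to 90.5 CPM on the HFD, and 1 to 5 of the 10 markers had at most 3 counts in a library. Adipoq, 1 of these markers, was at 0, 0.246 and 5.01 CPM on AIN93G and at 0.0576, 0.379 and 0.119 CPM on the HFD. The marker difference was not computed without AIN93G replicate 3. The part of these markers in the difference of Fos was not tested. At ZT 8 Fos was at 0.340, 0.480 and 0.327 CPM on AIN93G, and at 0.595, 1.95 and 2.80 CPM on the HFD. Here all 3 HFD libraries were above all 3 AIN93G libraries. The log2 difference was 2.18 (SE 0.70, 95% interval 0.73 to 3.63, unadjusted p 0.00481, adjusted p 0.276). The test of whether the diet difference changed with time over ZT 0 to ZT 12 gave an unadjusted p of 0.00519 and an adjusted p of 0.815 for Fos (1 without ZT 12), and 0 genes were called in it (0%, edgeR; 768, or 5.73%, at an unadjusted p under 0.05; 5 with DESeq2). Groups that do not overlap were common, at 7.8% of all genes at ZT 4 and 12.6% at ZT 8. At ZT 0 the diets overlapped for Fos, with 1.22, 1.19 and 1.19 CPM on AIN93G and 1.06, 0.842 and 2.18 CPM on the HFD. At ZT 12 they overlapped as well, with 0.740, 0.492 and 2.71 CPM on AIN93G and 1.04, 2.08 and 1.24 CPM on the HFD.

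Junb and Ier2 were the members whose diets did not overlap at ZT 0, where 12.6% of all genes did not. Junb (chromosome 8, 84974484 to 84978718) was at 7.96, 14.3 and 8.67 CPM on AIN93G and at 19.7, 17.6 and 18.5 CPM on the HFD. Its log2 difference was 0.84 (SE 0.44, 95% interval -0.06 to 1.75, adjusted p 1). Ier2, on the same chromosome (84661331 to 84662852), was at 13.9, 16.2 and 14.7 CPM on AIN93G and at 20.6, 20.5 and 19.2 CPM on the HFD. The log2 difference of Ier2 was 0.41 (SE 0.26, 95% interval -0.13 to 0.95, adjusted p 1). Both genes were higher in every HFD library, and neither passed the test. Markers of Kupffer cells and macrophages at ZT 0 had a median log2 difference of 0.80 over 7 markers, of which 4 had an unadjusted p under 0.05 and 0 were called. Their summed level was 359 to 450 CPM on AIN93G and 486 to 957 CPM on the HFD, and no marker had 3 counts or fewer in these libraries. The part of these markers in the values of Junb and Ier2 was not tested. At ZT 4, 8 and 12 the diets overlapped for both.

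Egr1 at ZT 4 shows how far 1 library can set a mean. Egr1 (chromosome 18, 34859823 to 34864984) was at 9.36, 7.80 and 62.2 CPM on AIN93G and at 11.8, 6.63 and 15.7 CPM on the HFD. The highest value, in AIN93G replicate 3, was also the highest of all 32 liver libraries. The log2 difference was -1.24 (SE 0.63, adjusted p 1), and 0.38 without that library. The same library held the highest Fos, Jun, Junb, Atf3, Ier2 and Btg2 of its group, and the liver library maximum of Adipoq given above. Whether the adipocyte marker bears on these values was not tested, and the share of all genes highest in that library was not counted. For comparison, Egr1 ranged from 14.2 to 68.6 CPM in the adipocyte-rich libraries.

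Dusp1 (chromosome 17, 26505590 to 26508519) had the other diet difference with an interval that left out 0. At ZT 8 it was at 45.3, 23.8 and 29.6 CPM on AIN93G and at 98.0, 117 and 26.8 CPM on the HFD. In the HFD group, 2 libraries were above every AIN93G library and the third lay within their range. The log2 difference was 1.27 (SE 0.50, 95% interval 0.24 to 2.30, unadjusted p 0.0178, adjusted p 0.336). At ZT 12 Dusp1 was at 136, 50.2 and 52.2 CPM on AIN93G and at 54.2, 108 and 35.1 CPM on the HFD. The highest library of each diet there, AIN93G replicate 1 and HFD replicate 2, was among the 3 with high Dbp.

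Jun, Atf3, Btg2 and Fosb had overlapping diets at all 4 time points. Jun (chromosome 4, 95049034 to 95052222) differed most at ZT 12, where it was at 20.0, 38.3 and 21.7 CPM on AIN93G and at 35.5, 83.4 and 17.8 CPM on the HFD. The log2 difference was 0.82 (SE 0.45, 95% interval -0.10 to 1.74, adjusted p 0.725), and 0.04 without HFD replicate 2, the library at 83.4 CPM. Atf3 (chromosome 1, 191170296 to 191218039) ranged from 0.556 to 3.14 CPM over the 24 libraries of ZT 0 to ZT 12. Btg2 (chromosome 1, 134075170 to 134079120) ranged from 7.76 to 21 CPM over the same libraries. Fosb was at 0 to 0.780 CPM in them, where a count of 0 allows up to 3 counts.

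Time of day was tested over ZT 0 to ZT 12 in both diets together. Junb was the member called, out of 8, beside 956 of 13394 genes (7.14%). On AIN93G, Junb averaged 10.3 ± 3.46 CPM at ZT 0 and 22.6 ± 12.1 CPM at ZT 4 (SD, n = 3), then 25.8 ± 13.3 CPM at ZT 8 and 10.4 ± 3.6 CPM at ZT 12. On the HFD it was at 18.6 ± 1.05, 21.7 ± 15.5, 25.3 ± 6.68 and 10.3 ± 2.27 CPM at the same time points. Its level was thus highest on average at ZT 8 and low at ZT 12 in both diets. Against ZT 0, the log2 difference averaged over diets was 0.72 at ZT 4, 0.96 at ZT 8 and -0.31 at ZT 12 (edgeR quasi-likelihood, adjusted p 0.0246). The call was lost without ZT 12 (adjusted p 0.105) and without AIN93G ZT 8 replicate 3 (adjusted p 0.0513), the library where Junb was at 37.9 CPM. No other member passed: the adjusted p was 0.0518 for Jun, 0.0862 for Dusp1, 0.119 for Ier2, 0.128 for Egr1, 0.143 for Btg2, 0.629 for Fos and 0.927 for Atf3. Jun was 0.93 and Dusp1 1.20 higher on the log2 scale at ZT 12 than at ZT 0, and Egr1 was at -1.10. Those values rest on the ZT 12 libraries described above. Jun passed without any 1 of AIN93G ZT 4 replicates 2 and 3, HFD ZT 4 replicate 1, HFD ZT 8 replicate 2 and HFD ZT 12 replicate 3 (adjusted p 0.00764 to 0.0462), and was at an adjusted p of 0.269 without HFD ZT 12 replicate 2, the library at 83.4 CPM. Dusp1 passed without HFD ZT 12 replicate 3 (adjusted p 0.0374; 0.261 without AIN93G ZT 12 replicate 1) and Ier2 without HFD ZT 8 replicate 2 (adjusted p 0.0447; 0.213 without HFD ZT 0 replicate 3). Without ZT 12, 1330 genes and 0 members were called, and the adjusted p was 0.665 for Jun and 0.326 for Dusp1. DESeq2 called 3 members in this test, Jun, Junb and Dusp1.

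In HFD liver alone, 6 time points from ZT 0 to ZT 20 could be compared, and 0 of 8 members were called beside 603 genes (4.5%, edgeR quasi-likelihood; 971 genes and 0 members without ZT 12). The lowest adjusted p was 0.0776 for Jun, which averaged 21.4, 16.4, 15.6, 45.6, 27.2 and 16.8 CPM from ZT 0 to ZT 20 in steps of 4 h. The adjusted p of Jun was 0.434 without ZT 12, 0.386 without HFD ZT 12 replicate 2 and 0.0116 without HFD ZT 12 replicate 3, and DESeq2 called Jun (adjusted p 0.0244). A 24 h cosine rhythm was called in 983 genes (7.34%) and in 0 of 8 members with edgeR. Without ZT 12 it was called in 1012 genes and in Atf3 (adjusted p 0.041), and DESeq2 called Atf3 (adjusted p 0.0207) and Egr1 (adjusted p 0.0222). At an unadjusted p under 0.05, 3308 genes (24.7%) were counted, and among members Atf3, Egr1, Jun, Btg2 and Junb. The lowest adjusted p was 0.0658 for Atf3, with a fitted amplitude of 0.63 on the log2 scale and a peak at ZT 17.4. Atf3 was at 5.81, 2.06 and 2.88 CPM at ZT 16 and at 3.05, 2.15 and 3.64 CPM at ZT 20. The highest HFD values of the other time points were 2.02, 2.26, 2.37 and 2.58 CPM from ZT 0 to ZT 12, so that ZT 4, ZT 8 and ZT 12 overlapped with ZT 16 and ZT 20. Atf3 passed without HFD ZT 12 replicate 3 (adjusted p 0.0316) or HFD ZT 4 replicate 3 (adjusted p 0.0416), and was at 0.174 without HFD ZT 16 replicate 1. Egr1 followed with an adjusted p of 0.0855, an amplitude of 0.73 and a peak at ZT 2.97, and passed without HFD ZT 20 replicate 3 (adjusted p 0.0438) or HFD ZT 4 replicate 2 (adjusted p 0.0436). For Egr1 the adjusted p was 0.175 without ZT 12 and reached 0.167 without HFD ZT 16 replicate 3. Rhythm on AIN93G was not tested, since no liver library was left at ZT 16 and ZT 20.

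At ZT 16 and ZT 20 the diet comparison set HFD liver against adipocyte-rich AIN93G libraries, so that diet and tissue content cannot be told apart. At ZT 16, 8120 genes were called (60.6%). Fos passed the filter only through the libraries in which it is high, so it is left out of the counts of members called, and its differences are given as a description with no test. Of the other 7 members, 4 were called at ZT 16, of which 3 were lower in HFD liver (33.1% of all genes) and 1 was higher (27.5%). At ZT 20, 7838 genes were called (58.5%) and 2 of these 7 members, both lower in HFD liver (30.1% of all genes, with 28.4% higher). An unadjusted p under 0.05 was reached by 64.4% of genes at ZT 16 and 62.7% at ZT 20. Of the same 7 members, the diets did not overlap for Jun, Junb, Egr1 and Btg2 at ZT 16 and for Jun, Egr1 and Btg2 at ZT 20. Each was lower in HFD liver. In either direction, 80.1% of genes tested did not overlap at ZT 16 and 76% at ZT 20. The share in each direction was not counted. As a description, Fos at both times and Fosb at ZT 20 did not overlap either and were lower in HFD liver. These are plain CPM, on which 76.1% of all genes had the higher median in the adipocyte-rich libraries. Fos at ZT 16 was at 36.2, 28.2 and 10.2 CPM in the AIN93G libraries and at 4.04, 0.822 and 2.12 CPM on the HFD. Its log2 difference was -2.65 (SE 0.76) at ZT 16 and -3.03 (SE 0.78) at ZT 20. Egr1 was lower in HFD liver at both times (-1.72, adjusted p 0.029, and -1.68, adjusted p 0.0312). Btg2 (-1.31, adjusted p 0.00172) and Junb (-0.89, adjusted p 0.0214) were lower at ZT 16, and Jun (-1.26, adjusted p 0.00649) at ZT 20. The 8 lymphocyte markers had a median log2 difference of -6.06 at ZT 16, lower in HFD liver. Over all liver libraries their summed level was at most 8.4 CPM. As a set they passed the filter only through adipocyte-rich libraries, so their difference is a description with no test. Their summed level at ZT 16 was 783, 2.83 and 376 CPM in AIN93G replicates 1 to 3 and 2.26 to 6.36 CPM on the HFD, and their part in the members' differences was not tested. Dusp1 was the member higher in HFD liver, by 1.46 at ZT 16 (adjusted p 0.0223). Atf3 and Ier2 were called at neither time. Jun at ZT 16 (-0.81, adjusted p 0.0505) was called without AIN93G replicate 3 (-0.94, adjusted p 0.0437), without HFD replicate 1 (-1.25, adjusted p 0.00511; -0.45 without AIN93G replicate 2) and when each library fitted had to hold 25 counts or more of a gene (adjusted p 0.0336). Leaving out 1 library at a time ended other calls. Junb at ZT 16 was lost without AIN93G replicate 1 (-0.50, adjusted p 0.134), AIN93G replicate 3 (adjusted p 0.0537) or HFD replicate 1 (adjusted p 0.0669), and Dusp1 without AIN93G replicate 3 (adjusted p 0.053) or HFD replicate 1 (adjusted p 0.0672). Egr1 at ZT 16 was lost without AIN93G replicate 1 (-0.97, adjusted p 0.17), HFD replicate 2 (adjusted p 0.0858) or HFD replicate 3 (adjusted p 0.0959), and at ZT 20 without any of AIN93G replicates 1 and 2 and HFD replicates 1 and 2 (adjusted p 0.052 to 0.115). The calls of Btg2 at ZT 16 and Jun at ZT 20 held in all of these fits. With library size alone as the scaling, the median difference of all genes moved from -0.09 to -0.86 at ZT 16 and from -0.04 to -0.67 at ZT 20, Dusp1 was no longer called at ZT 16 (0.68, adjusted p 0.231), and Jun at ZT 16 (-1.57) and Btg2 at ZT 20 (-0.99) were called as well. That scaling also moved the genes called at ZT 16 from 3685 higher and 4435 lower to 2012 higher and 8547 lower. At ZT 20 it moved them from 3800 higher and 4038 lower to 2205 higher and 7366 lower.

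All 10 adipocyte-rich libraries, of both diets, can be set beside the 32 liver libraries without a test. Fos had a median of 27.7 CPM in the former (4.12 to 36.2) and of 1.23 CPM in the latter (0.126 to 4.04), a ratio of 22.6. Btg2 had medians of 36.7 CPM (22.3 to 80.5) and 11.5 CPM (7.76 to 21), a ratio of 3.19. The libraries of Btg2 did not overlap, and 33.7% of all genes likewise had all 10 adipocyte-rich libraries above all liver libraries. Those of Fos did not overlap either. Fos passed the filter only through these 10 libraries, so its values are a description and are not set beside that share. The ratio of medians was 9.44 for Fosb, 3.32 for Jun, 3.07 for Atf3, 2.96 for Egr1, 1.71 for Junb, 1.22 for Ier2 and 1.17 for Dusp1, and the ranges of these 7 overlapped. These ratios are of plain CPM, on which 76.1% of all genes had the higher median in the adipocyte-rich libraries. Between ZT 20 and ZT 16 in the adipocyte-rich AIN93G libraries, 0 of 8 members were called beside 2 genes (0.0149%, edgeR; 1796 genes, or 13.4%, at an unadjusted p under 0.05). Junb (-0.72, unadjusted p 0.0314, adjusted p 0.332) and Btg2 (-0.70, unadjusted p 0.0275, adjusted p 0.32) were the members at an unadjusted p under 0.05 there. Without AIN93G ZT 16 replicate 1, the values were -0.36 for Junb and -0.34 for Btg2. Lymphocyte markers had a median log2 difference of -2.54 in this comparison, again as a description with no test. Their summed level at ZT 20 was 4.96, 2.35 and 176 CPM, beside the values of ZT 16 given above. Their part in the values of Junb and Btg2 was not tested.

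In some groups of 3, 1 library held the highest or the lowest value of most members. AIN93G ZT 4 replicate 3 held the highest value of its group in 7 of 8 members, and HFD ZT 8 replicate 2 and HFD ZT 16 replicate 1 in 6 of 8. HFD ZT 12 replicate 3 held the lowest value in 7 of 8 and AIN93G ZT 0 replicate 1 in 6 of 8. These are the most extreme of the 30 liver libraries. The share of all genes highest or lowest in each was not counted, so the counts are not a result about these genes. HFD ZT 12 replicate 3 was also among the 3 libraries of ZT 12 with low Dbp. Deviations of log2 CPM from the group mean were correlated between all 36 pairs of the 9 members over the 30 liver libraries. The coefficient was above 0 in 26 pairs, with a median r of 0.12 and a range of -0.52 to 0.64, and no pair passed a two-sided test of 100000 permutations within groups after adjustment over the 36 pairs. The highest was that of Atf3 with Btg2 (r = 0.64, rho = 0.67, permutation p 0.00295 and 0.00145, adjusted p 0.0655 and 0.0522), and it was 0.64 without the 2 libraries farthest from the median. Junb with Egr1 (r = 0.57, rho = 0.54, permutation p 0.00632 and 0.0125) and Fos with Egr1 (r = 0.56, rho = 0.54, permutation p 0.00422 and 0.00788) followed, with adjusted p of 0.0655 for r and 0.114 for rho. The lowest was that of Fosb with Ier2 (r = -0.52, rho = -0.50, permutation p 0.0364 and 0.0338, adjusted p 0.218 and 0.203), where Fosb rests on few counts. With library size alone as the scaling, Atf3 with Btg2 was called (r = 0.68, rho = 0.70, permutation p 0.00092 for r, adjusted p 0.0331 and 0.0227), and likewise without ZT 12 (r = 0.74, rho = 0.78, permutation p 0.00077 for r, adjusted p 0.0277 and 0.0133).

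**Figure D4:**
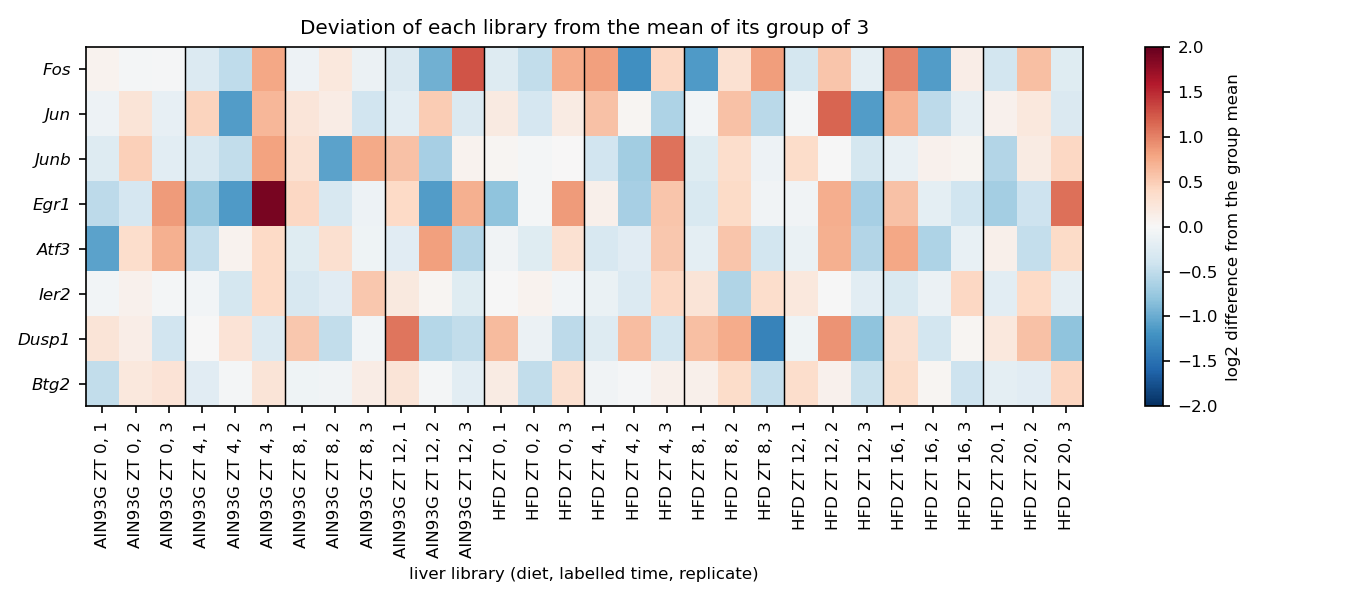
Log2 difference of each of 30 liver libraries from the mean of its group of 3, for 8 members, in colour from -2 to 2 (red above the group mean, blue below). The column of AIN93G ZT 4 replicate 3 is red in 7 of 8 genes and that of HFD ZT 12 replicate 3 blue in all 8, of which 7 were the lowest of their group. The share of all genes that deviate likewise in these libraries was not counted.

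The genes most like the members in pattern were ranked by the correlation of their log2 CPM with the mean standardized level of the 8 members over the 30 liver libraries. They were Lrp12 (r = 0.66), Kdm2b (0.60), Slf1 (0.59), Cercam (0.58), Iffo1 (0.58), Mmp15 (0.58), Chaf1a (0.57), Plk3 (0.56), Hyal1 (0.56) and E2f1 (0.55). Plk3, a polo-like kinase gene, was the gene among these that stood in the list of other early response genes. The members, which enter that mean, had coefficients from 0.31 (Ier2) to 0.62 (Btg2). These libraries are all liver and differ in diet, labelled time and depth. Group means were not removed here, and the coefficients are descriptions.

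Genes of the same pathways were followed as lists. Of 23 partners of AP-1 (such as Jund, Fosl2 and Atf4), 19 were tested, and 0 were called between diets at ZT 0, 4, 8 and 12. Their median log2 difference at these times was 0.14, 0.03, 0.09 and -0.06, beside 0.0032, -0.0079, 0.0022 and -0.0014 over all genes. The partner with the lowest p at ZT 8 was Atf4 (-0.68, SE 0.19, adjusted p 0.262), the transcription factor of the integrated stress response. Atf5, a relative of Atf4, was among the partners called over time, with a log2 difference of -0.97 at ZT 8 against ZT 0 (adjusted p 0.031). Of 46 other early response genes, 42 were tested and 0 were called between diets at these 4 times, with medians of 0.23, -0.05, 0.09 and -0.01 in the same order. The lowest p at ZT 0 were those of Btg3 (-0.88, SE 0.36) and Nr4a1 (1.19, SE 0.54), and at ZT 4 those of Zfp36l1 (-0.83, SE 0.22) and Nr4a1 (-1.88, SE 0.55), each with an adjusted p of 1. Nr4a1 encodes a nuclear receptor induced by cyclic AMP and Btg3 a relative of Btg2. Over time 7 of these 42 were called, beside 7.14% of all genes here and for the lists that follow, among them Zfp36l1 (-1.26 at ZT 8, adjusted p 0.000259) and Cdkn1a (-3.15, adjusted p 0.000837), both below ZT 0, and Per1 (1.51, adjusted p 0.0103) and Klf10 (1.31, adjusted p 0.0134), both above. Zfp36l1 encodes an mRNA decay factor, Cdkn1a the cell cycle inhibitor p21, Per1 a clock protein and Klf10 a zinc finger repressor.

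No gene of the inputs and brakes of the same signals was called between diets at ZT 0 to ZT 12. Of 35 genes of the SRF, ERK and CREB inputs, all 35 were tested, with median log2 differences between -0.06 and 0.06. Over time 1 was called, Map2k6 (1.45 at ZT 8 against ZT 0, adjusted p 0.0158), a kinase of the p38 branch. Of 19 feedback regulators (other Dusp genes, sprouty genes and Nab genes), 17 were tested, with medians between -0.08 and 0.08. Over time 2 were called, Nab2 (1.07 at ZT 4, adjusted p 0.0108), which encodes a corepressor of Egr1, and Spry1 (-0.69 at ZT 8, adjusted p 0.0457), a brake on receptor tyrosine kinases.

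Heat shock genes, which are induced by another stress pathway, were followed for comparison. All 12 were tested, 0 were called between diets at ZT 0, 4, 8 or 12, and 5 were called over time. Hspa1b was at -1.72 at ZT 8 and 0.83 at ZT 12 against ZT 0 (adjusted p 2.25e-05), and Dnajb1 at -0.57 and 0.41 (adjusted p 0.000242). A 24 h rhythm on the HFD was called in 6 of 12 heat shock genes, in 3 of 19 partners of AP-1, in 4 of 42 other early response genes, in 2 of 35 inputs and in 0 of 17 feedback regulators, beside 7.34% of all genes. The sum of the list over liver libraries ranged from 2565 to 6037 CPM for heat shock genes and from 835 to 1645 CPM for the other early response genes. At ZT 16 and ZT 20, where tissue content cannot be told apart from diet, 30 and 28 of the 42 other early response genes were called, 22 and 21 of them lower in HFD liver, with medians of -0.86 and -0.64. Of all genes, 60.6% and 58.5% were called, 33.1% and 30.1% lower, with medians of -0.09 and -0.04 (-0.86 and -0.67 with library size alone). Klf6 (-2.74, SE 0.26) and Klf4 (-5.46, SE 0.55) were lower and Plk3 (4.14, SE 0.33) was higher at ZT 16.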

How the data were processed

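Read counts per gene of 42 libraries were used as deposited, without normalization. The authors had poly(A) RNA of liver sequenced by a company. The submitters' processing notes name fastp, STAR, HTSeq 0.6.1, DESeq, STAR-Fusion and the build mm10. The strand setting is not given in the sources used here, so reads of a gene and of an antisense gene cannot be told apart. The deposited gene length, in bases, was used to set levels of genes side by side.

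R 4.3.3 with edgeR 4.0.16 was used. The test took in genes whose count averaged 25 or more across the 42 libraries, which were 13394 of 54532 (20401 had no count). Counts were scaled by TMM and tested with the quasi-likelihood F-test at a Benjamini-Hochberg adjusted p under 0.05 over all genes tested, and edgeR gave every adjusted p of a gene except where DESeq2 (1.42.0) is named. The liver fit held 30 libraries in 10 groups of 3, the fit of ZT 16 and ZT 20 held 12 libraries, and the rhythm fit 18 HFD libraries with cosine and sine terms of 24 h. CPM are counts-per-million of the library total. Log2 CPM for correlations had a prior count of 2. Scripts were tested on simulated data. Figures and promoter searches were made in Python 3.11.15, with gene positions as in the deposited table.

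The members, the lists and the tests were chosen with earlier results of these data known. Named genes are the 9 members, up to 4 genes per list with the smallest p in the test described, the 10 genes most like the members in pattern, and Alb, Adipoq and Dbp for the labels. The alternatives were other scalings and filters, robust estimation, DESeq2, smaller fits, leaving out ZT 12, and leaving out each library. Replicate numbers were given in accession order.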

Additional observations from a re-analysis of the deposited data

Results flagged for a closer look

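Fos had diet differences of opposite direction at 2 time points, with groups that did not overlap at either. The ratio of the HFD mean to the AIN93G mean was 4.66 at ZT 8 and 0.3 at ZT 4, in CPM. The interaction of diet with time had an adjusted p of 0.815 for Fos (edgeR), so that the difference between the time points did not pass the test.

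The liver libraries of ZT 24, 1 per diet, entered no comparison. In the AIN93G library 6 members were above every AIN93G liver library of ZT 0 to ZT 12, at 3.1 CPM for Fos, 48 for Jun, 3.33 for Atf3, 40.1 for Ier2, 158 for Dusp1 and 16.3 for Btg2. In the HFD library 3 members were above those same AIN93G libraries, at 1.04 CPM for Fosb, 63.4 for Jun and 16.7 for Btg2. Of the 13394 genes tested, 1005 (7.5%) of the AIN93G library and 993 (7.41%) of the HFD library were likewise above all 12 of these libraries. Above all 18 HFD liver libraries of ZT 0 to ZT 20 were 2 members (Ier2 and Dusp1) and 523 genes (3.9%) in the AIN93G library. In the HFD library these were 0 members and 463 genes (3.5%). The highest AIN93G values from ZT 0 to ZT 12 were 3.08 CPM for Fos, 38.3 for Jun, 3.14 for Atf3, 36.2 for Ier2, 136 for Dusp1, 15.6 for Btg2 and 0.780 for Fosb. The values of Fos, Atf3 and Btg2 were thus above them by small amounts. The 95% Wilson interval was 2.37 to 4.04 CPM for Fos, 2.57 to 4.30 for Atf3, 14.5 to 18.3 for Btg2, 44.8 to 51.3 for Jun, 37.3 to 43.2 for Ier2 and 153 to 164 for Dusp1 in the AIN93G library. In the HFD library it was 0.641 to 1.69 CPM for Fosb, 59.5 to 67.5 for Jun and 14.7 to 18.8 for Btg2. These intervals cover counting error only, and Dbp, at 148 and 66.1 CPM in these libraries, lay outside the range of ZT 0 and nearer to the 3 high libraries labelled ZT 12. Whether the labelled times are right was not tested.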

How the results depend on the processing

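No paired analysis was possible because no label pairs samples across diets: replicate numbers were given in accession order, and the numbers in the titles are shared only within a diet. A block on those title numbers over time was not run. No scaling, filter or left-out library gave a called member between diets at ZT 0, ZT 4 or ZT 12. Among members with a printed diet difference, that of Egr1 at ZT 4 changed sign, with a range of -1.69 to 0.38 when 1 library was left out (0.38 without AIN93G ZT 4 replicate 3). Groups hold 3 libraries, Fos has few counts in liver, and Fosb too few for a test, which limits what could be detected.

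Without a filter on low counts, the genes called between diets were 51 at ZT 0, 19 at ZT 4, 183 at ZT 8 (1 member, Dusp1), 78 at ZT 12 and 232 over ZT 0 to ZT 12. In the same setting 93 were called in the interaction (1 member, Fos, adjusted p 0.0494), 1818 over time (5 members), 1738 over time on the HFD (5 members) and 103 between ZT 20 and ZT 16 on AIN93G, and the 24 h rhythm had 2 members. DESeq2 called 13 at ZT 0, 26 at ZT 8, 3 at ZT 12, 78 over ZT 0 to ZT 12, 5 in the interaction, 1588 over time (3 members), 1714 over time on the HFD (1 member, Jun), 1661 for the rhythm (2 members, Egr1 and Atf3) and 282 between ZT 20 and ZT 16. With library size alone, 24 were called over ZT 0 to ZT 12, 1 between ZT 20 and ZT 16, and 1 pair of members correlated (Atf3 with Btg2). Robust estimation gave 6 over ZT 0 to ZT 12. With the 6 libraries of a time point alone, 14 were called at ZT 0 and 0 at ZT 8, and with 18 HFD libraries alone 307 over time. Without ZT 12, 69 were called over ZT 0 to ZT 8 between diets, 971 over time on the HFD, 0 members over time, 1 member (Atf3) for the rhythm, and 1 pair of members correlated (Atf3 with Btg2). The cause of these shifts was not tested.

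Leaving out 1 library at a time gave 0 to 74 genes between diets at ZT 12 (74 without AIN93G replicate 1), 0 to 14 at ZT 8 (14 without HFD replicate 2), 5 to 193 over ZT 0 to ZT 12 (193 without AIN93G ZT 12 replicate 1) and 0 to 2 in the interaction. It gave 611 to 1430 over time with 0 to 3 members, 284 to 1087 over time on the HFD with 0 to 1 member, and 642 to 1674 for the rhythm with 0 to 1 member. The highest of these 3 counts of genes came without HFD ZT 12 replicate 3. It gave 3 to 5 members at ZT 16 (with Fos, which is described without a test, in each), 0 to 63 genes between ZT 20 and ZT 16 (63 without AIN93G ZT 16 replicate 2), and 0 to 1 pair of correlated members.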
